A study of Mus musculus with 2 samples.

Results

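The circadian clock genes and Nfil3 were followed in mouse bone marrow-derived macrophages (BMDMs) kept for 1 hr with apoptotic cell supernatant or with medium, 1 Affymetrix array per condition. The 10 genes are Per1, Per2, Cry1, Cry2, Nfil3, Dbp, Nr1d1, Nr1d2, Bhlhe40 and Clock. They were taken by name, as all probe sets that the array's annotation gives to a single gene, and they make up 10 of 18194 genes so named. On both arrays the macrophages came from female C57BL/6J mice aged 8 weeks and had been grown with M-CSF for more than 7 days. For the first array the supernatant came from W3 cells, a mouse T cell line expressing Fas, in which Fas had been engaged by human Fas ligand over 30 min. These cells conditioned RPMI with 1% FCS during the next 60 min. For the second array the labels give RPMI with 10% FCS as the medium. The serum content therefore differed between the conditions, and the supernatant of living W3 cells was not analysed here, so apoptosis, conditioning by W3 cells and serum cannot be told apart.

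The clock is a feedback loop of transcription factors that runs in most cell types, macrophages included. Clock and its partner Arntl activate genes through the E-box, among them the Per and Cry genes, whose proteins then repress Clock and Arntl. The nuclear receptors Nr1d1 and Nr1d2 (REV-ERB alpha and beta) repress Arntl, Dbp activates and Nfil3 (E4BP4) represses genes through a shared element called the D-box, and Bhlhe40 (Dec1) represses through the E-box. Per1 can in addition be switched on within minutes by cyclic AMP, through CREB bound to the cAMP response element (CRE), and Nfil3 is likewise known as a gene that cAMP induces. Adenosine A2 receptors raise cyclic AMP, which is why Per1 and Nfil3 are set here against the remaining clock genes. The remaining genes were not sorted by whether cyclic AMP can induce them, so they are not a set known to lack such induction.

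The array reads each gene by 1 or more probe sets, and the value of a probe set is its MAS5 signal, an intensity on a linear scale. Dim signals were bounded by a floor of 38.4. This is the 95th percentile of the signals of 80 probe sets for olfactory or vomeronasal receptors, taken here as silent in macrophages, on whichever array gave the higher value. Signals under the floor were raised to it, a gene was represented by its brightest probe set, and a gene counted as measured when at least 1 array exceeded the floor. By that rule 9 of the 10 genes were measured, among 11977 measured genes of the whole array, and Nr1d1 was not. The 10 genes are read by 17 probe sets, of which 14 were above the floor on both arrays and 3 were under it on both. Neither condition was replicated, so the differences carry no error and no p-value, and precision is limited by having 1 array of each. A scale for the values is given by probe sets that read the same gene. The log2 ratios of the 2 brightest probe sets of a gene differed with an SD, divided by the square root of 2, of 0.25 over 5196 genes, which covers disagreement on these arrays and no biological error.

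Nfil3 and Per1 had higher signals with apoptotic cell supernatant than with medium. The other 7 measured clock genes had ratios close to 1 or below it. Nfil3, a basic leucine zipper repressor that is also required for natural killer cell development, was 4.67-fold higher. Per1, a period gene and inhibitor of Clock and Arntl, was 1.95-fold higher, just short of 2-fold. Cry1, Bhlhe40 and Dbp had log2 ratios of -0.50, -0.47 and -0.31, and Cry2, Nr1d2, Clock and Per2 lay between -0.12 and 0.17.

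To show where the letters bound by CREB stand at the genes with higher signals, the windows around their transcription starts are printed here, from 250 bases before to 50 after each start (RefSeq, build GRCm38.p6). Sequences run 5′ to 3′ on the strand of the gene, and the capitals mark TGACG, the core of the CRE, or CGTCA, the same letters read on the opposite strand. RefSeq gives Nfil3 1 start (chr13:52980990-52981289, minus strand) and Per1 2 starts (the upstream at chr11:69098699-69098998, plus strand, and the downstream at chr11:69099902-69100201, plus strand).
Nfil3: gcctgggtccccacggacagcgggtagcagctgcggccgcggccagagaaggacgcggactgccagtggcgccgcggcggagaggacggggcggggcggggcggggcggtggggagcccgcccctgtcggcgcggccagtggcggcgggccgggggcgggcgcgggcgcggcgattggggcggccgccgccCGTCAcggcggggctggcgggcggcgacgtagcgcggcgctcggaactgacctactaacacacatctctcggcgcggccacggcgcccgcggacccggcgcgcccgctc
Per1 upstream start: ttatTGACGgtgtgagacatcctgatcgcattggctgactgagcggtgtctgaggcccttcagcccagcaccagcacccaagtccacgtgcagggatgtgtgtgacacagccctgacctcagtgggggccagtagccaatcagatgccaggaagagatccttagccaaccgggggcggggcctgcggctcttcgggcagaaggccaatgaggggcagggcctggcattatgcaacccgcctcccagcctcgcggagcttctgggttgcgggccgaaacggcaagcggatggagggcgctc
Per1 downstream start: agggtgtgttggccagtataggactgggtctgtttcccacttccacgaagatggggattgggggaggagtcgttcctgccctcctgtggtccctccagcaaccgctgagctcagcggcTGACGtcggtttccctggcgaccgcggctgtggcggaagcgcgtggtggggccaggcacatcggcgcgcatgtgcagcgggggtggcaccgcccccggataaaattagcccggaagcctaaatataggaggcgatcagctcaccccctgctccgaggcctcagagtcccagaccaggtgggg

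In the Nfil3 window the core began 59 bases before the start, and in the Per1 windows it began 246 and 132 bases before. The same search on both strands found it in 5 of the 11 windows that RefSeq gives for 8 of the 10 genes (Per2 and Bhlhe40 were not searched), and in 20.8% of all 32851 windows of this length. Besides Nfil3 and Per1 the genes holding it were Cry1 and Cry2, whose log2 ratios were -0.50 and -0.07. They are shown as the contrast, in 61 bases around the core (Cry1 at chr10:85185030-85185090, minus strand, and Cry2 at chr2:92434246-92434306, minus strand).
Cry1: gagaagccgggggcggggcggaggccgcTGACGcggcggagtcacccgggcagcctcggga
Cry2: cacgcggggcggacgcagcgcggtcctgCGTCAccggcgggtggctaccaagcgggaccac

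The core began 8 bases before the start in Cry1 and 209 before it in Cry2, so its presence in these windows did not separate the genes with higher signals from the others. The full palindrome TGACGTCA was in none of the 11 windows and in 1.79% of all windows. The E-box CACGTG, the element of Clock and Arntl, was in the windows of Cry1 and of the upstream start of Per1, and in 7.15% of all. Of the D-box only the forms TTATGTAA and TTACGTAA were searched, on both strands. These 2 forms were in none of the windows, against 0.938% and 0.119% of all. Forms with other letters were not searched, and the printed window of the upstream Per1 start holds the similar letters ttatgcaa. AGGTCA, the letters that REV-ERB and ROR receptors share with other nuclear receptors, was in windows of Nfil3, Nr1d2, Clock and Per1, and in 16.3% of all. These matches describe letters in a short window and say nothing of binding.

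The Nfil3 probe set read 1783 with the supernatant and 382 with medium. This log2 ratio of 2.22 was the 19th highest of the 11977 measured genes. Since ratios scatter more among dim genes, the gene was also placed among the 8174 genes with both signals above 192, which is 5 times the floor. Only 4 of these genes, Nfil3 included, had a log2 ratio as high, and the SD over the 8174 genes was 0.24. The limit also drops genes that lie below it on 1 array only. Among them are the nuclear receptor gene Nr4a2 (6924 with the supernatant and 156 with medium) and Thbs1 (1175 with the supernatant and 56.2 with medium). Places among the 8174 genes, here and below, leave such genes out. Nfil3 is read by 1 probe set with a single name, so no second one checks the size of this difference. Of the 9 measured genes Nfil3 alone was at least 2-fold higher, and none was at least 2-fold lower. Past the same threshold lay 115 of all measured genes (0.96%) on the higher side and 101 (0.843%) on the lower, a split of 145 and 74 after quantile normalization and of 135 and 71 after loess.

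**Figure D1:**
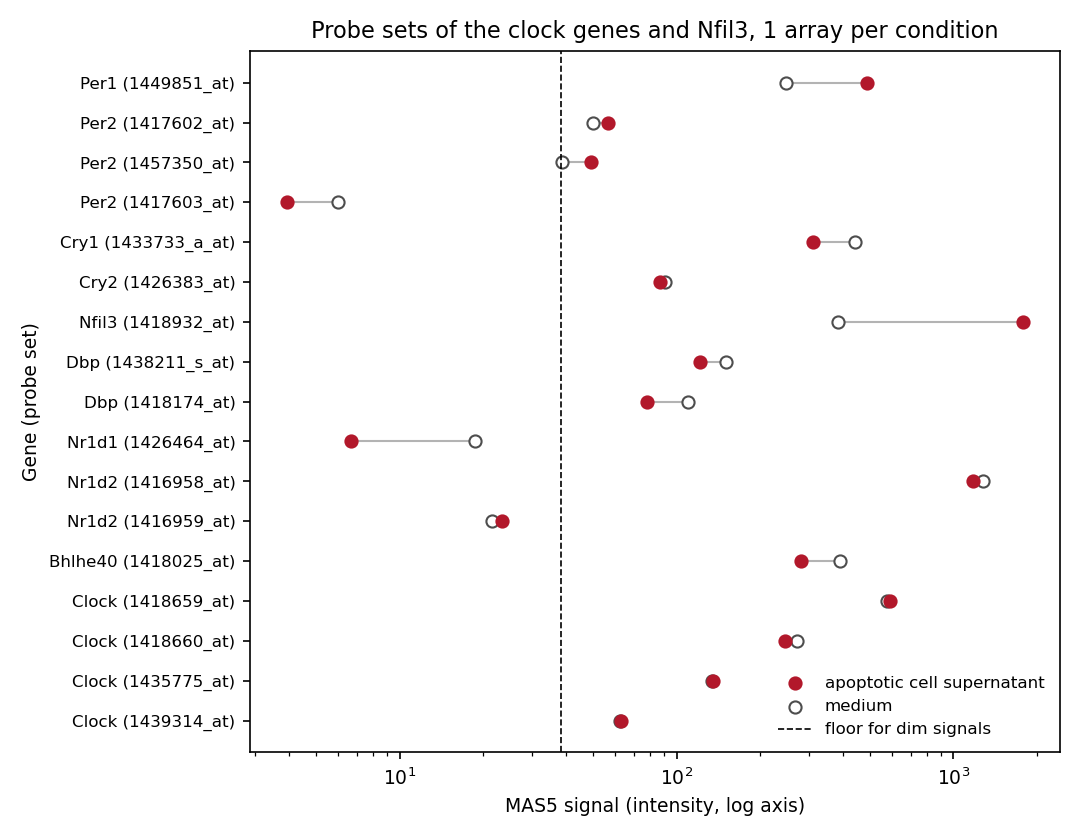
MAS5 signal (intensity, log axis) of each of the 17 probe sets of the 10 genes, with apoptotic cell supernatant (filled circles) and with medium (open circles), 1 array each. The dashed line marks the floor of 38.4. The wide gaps to its right are those of Nfil3 (1783 with the supernatant and 382 with medium) and Per1 (486 with the supernatant and 249 with medium), while the wide gap of Nr1d1 lies left of the floor.

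Among the period genes, Per1 read 486 with the supernatant and 249 with medium, also on a single probe set. Its log2 ratio of 0.96 was the 127th highest of all measured genes, and among the 8174 brighter genes 46 (0.563%), Per1 included, were as high or higher. Per1 passed 2-fold after quantile normalization (2.01-fold) and after loess (2.02-fold), and it was 1.99-fold with the arrays centred on the median and 1.82-fold with a pseudocount of the floor's size, so its side of that threshold is set by the scaling. Per2, the closest relative of Per1 within the clock, was dim. Its brightest probe set read 56.4 with the supernatant and 50.03 with medium, and the next read 48.9 with the supernatant and 38.5 with medium. Both ratios were above 1 (log2 0.17 and 0.34), but all 4 signals lay under 62.4, the brightest signal among the receptors. The remaining Per2 probe set stayed below the floor in both conditions (3.91 with the supernatant and 5.98 with medium). The log2 ratio of Per1 exceeded that of Per2 by 0.79.

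The cryptochromes, which join the period proteins in repressing Clock and Arntl, did not share the difference of Per1. Cry1 read 312 with the supernatant and 442 with medium, 1.42-fold lower. Its log2 ratio of -0.50 was the lowest of the 9 genes, yet 120 of the 8174 brighter genes (1.47%) were as low or lower. Its probe set carries the _a suffix, which marks probes that may read several transcripts of the gene. Cry2 read 86.9 with the supernatant and 91.2 with medium, a log2 ratio of -0.07 whose sign changed to 0.04 after quantile normalization and 0.02 after loess.

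Clock, the activator of the loop, is read by 4 probe sets, more than any other of these genes. They read 591, 247, 136 and 63.2 with the supernatant, and 576, 271, 134 and 62.8 with medium. Their log2 ratios ran from -0.14 to 0.04, so all 4 gave nearly equal signals in both conditions, within the SD of 0.25 between probe sets of a gene. The ratio of the brightest was 1.03.

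Of the nuclear receptors, Nr1d2 read 1176 with the supernatant and 1275 with medium on its bright probe set, a log2 ratio of -0.12. Its second probe set stayed below the floor in both conditions (23.4 with the supernatant and 21.6 with medium). Nr1d1 read 6.67 with the supernatant and 18.7 with medium. Both signals lie under the floor, and the ratio of 0.356 between them has no meaning as a difference in mRNA. Nr1d1 was therefore not measured, and no statement on its change is possible from these arrays.

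Dbp, the activator that competes with Nfil3 for the D-box, had lower signals with the supernatant on both its probe sets. The brighter read 122 with the supernatant and 151 with medium, and the other 78.3 with the supernatant and 110.2 with medium. Their log2 ratios were -0.31 and -0.49, 1.24-fold and 1.41-fold lower. The log2 ratio of Nfil3 exceeded that of Dbp by 2.53 on the brighter probe set, so within these arrays the signal of the repressor relative to that of the activator was 5.78-fold higher with the supernatant. The brighter Dbp probe set has the _s suffix, for probes that may also read other genes. Bhlhe40, the E-box repressor, which many cell types induce in response to outside signals, read 281 with the supernatant and 389 with medium, 1.38-fold lower, on its 1 probe set. Of the 8174 brighter genes 147 (1.80%) had a log2 ratio as low as its -0.47 or lower. Cry1 and Bhlhe40 thus had lower signals by more than the SD of 0.25 between probe sets. Dbp did so as reported, but its brighter probe set had log2 ratios of -0.25 after quantile normalization, -0.23 after loess and -0.24 with the pseudocount. None of the 3 genes came near 2-fold.

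**Figure D2:**
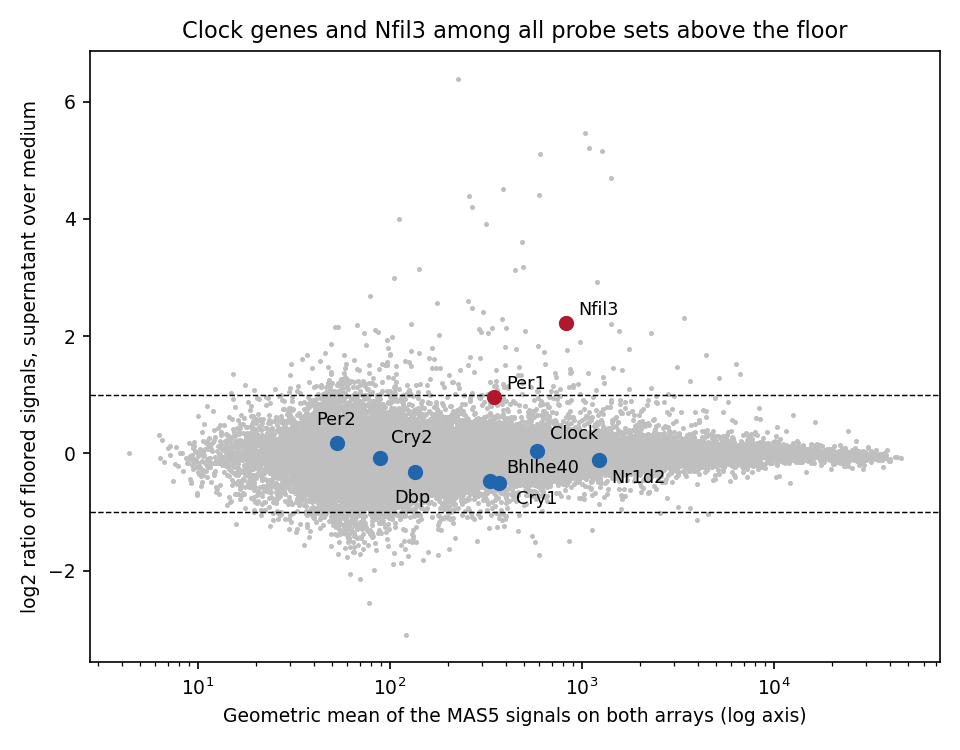
Log2 ratio of supernatant over medium, on floored signals, against the geometric mean of both signals (log axis) for all probe sets above the floor on at least 1 array (grey), with dashed lines at a 2-fold difference. Nfil3 (2.22) and Per1 (0.96), in red, lie above most of the grey points of their brightness, and the other 7 measured clock genes, in blue, lie within it between -0.50 and 0.17.

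Set against each other, Per1 and Nfil3 had a mean log2 ratio of 1.59 and the other 7 measured genes a median of -0.12, a difference of 1.71. The 7 genes ran from -0.50 to 0.17, with 2 above 0 and 5 below it (Cry2 changed side after quantile normalization and loess, and Clock with the mean of all probe sets), and Per1 lay 0.79 above the highest of them. All 9 measured genes together had a median of -0.07, against -0.02 for all 11977 measured genes. These are differences between genes on the same 2 arrays, and the genes are not replicates of a condition.

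By their brightest probe sets, the remainder of the clock showed no difference of 2-fold. Of 24 further clock and clock-associated genes, 21 had a probe set with a single name and 18 were measured. None of the 18 was at least 2-fold higher or lower. Over all measured genes 0.96% were higher and 0.843% lower, so none in a list of 18 is near those shares. The median log2 ratio of the 18 genes was -0.04, with 8 above 0 and 10 below it. The 4 largest differences among those above the floor on both arrays were all downward. Bhlhe41 (Dec2), the relative of Bhlhe40, read 50.1 with the supernatant and 78.7 with medium, and Fbxl21, an F-box protein that acts on cryptochromes, read 45.5 with the supernatant and 69.2 with medium, so both were dim. Timeless, which acts mainly in DNA replication in mammals, read 1105 with the supernatant and 1572 with medium on its brighter probe set (log2 ratio -0.51), and its other probe set had a log2 ratio of -0.23. Usp2, a ubiquitin-specific protease, read 606 with the supernatant and 822 with medium, and its 2 probe sets gave log2 ratios of -0.44 and -0.37.

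Arntl, Per3 and Rora, which complete the core loop, were looked at after their values were seen, as were Nono and Btrc. Arntl, the partner of Clock, read 371 with the supernatant and 359 with medium, while its dimmer probe set had a log2 ratio of -0.41. Per3, the third period gene, read 95.6 with the supernatant and 129 with medium on its brightest probe set, and the 4 of its probe sets that passed the floor in both conditions ran from -1.11 to 0.38. Rora, an activator of Arntl, read 203 with the supernatant and 169 with medium, and its 5 such probe sets ran from -0.89 to 0.41. For Per3 and Rora the probe sets therefore gave no common direction. Nono, an RNA-binding partner of the period proteins, read 8333 with the supernatant and 8368 with medium on its brightest probe set. Its 4 probe sets all had negative log2 ratios, from -1.06 to -0.01. The dimmest read 164 with the supernatant and 341 with medium (log2 ratio -1.06). The next read 218 with the supernatant and 361 with medium (log2 ratio -0.73). Btrc differed upward, with log2 ratios of 0.33 and 0.80 on the 2 probe sets that passed the floor in both conditions, but both were dim. Its other probe sets did not pass the floor in both.

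The genes that share regulators with Per1 and Nfil3 give a context for their ratios. Of 14 measured cAMP and CREB target genes outside the clock, 9 were at least 2-fold higher and none at least 2-fold lower, with a median log2 ratio of 1.56. Over all measured genes 0.96% were higher and 0.843% lower by that much. The list was chosen with earlier results known, and the authors had already reported the Nr4a genes and Thbs1 as raised in this comparison. Its count and median are therefore no independent result. The highest were Nr4a2, Nr4a1 and Nr4a3, nuclear receptors of the immediate early response, Thbs1, a secreted matrix glycoprotein, and Fosb, a subunit of AP-1, at 44.3-fold, 35.8-fold, at least 16.0-fold, 20.9-fold and at least 7.95-fold higher (a medium signal under the floor leaves a lower bound). By log2 ratio Nfil3 stood between Fosb and the cAMP phosphodiesterase Pde4b (2.09), and Per1 between Sik1 (1.05), a kinase that feeds back on CREB signalling, and Junb (0.87), of which Pde4b, Sik1 and Junb were named after their values were seen. None of 6 measured genes for CREB and its partners was 2-fold different, and their log2 ratios ran from -0.42 (Crtc3) to 0.51 (Crtc2), both CREB coactivators, with a median of -0.06.

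Per1 is also a target of glucocorticoids and of serum, so lists for these were read in the same way. None of 7 glucocorticoid-inducible genes was 2-fold different (median log2 ratio 0.04), and among them Tsc22d3, a classical target, read 1647 with the supernatant and 1605 with medium. None of 8 measured serum-inducible genes was 2-fold different either (median -0.07), and the highest of them was Fos, at 0.54. Fos is on the cAMP list as well. The Nr4a genes of the immediate early response, Fosb, Dusp1 (2.54-fold higher) and Junb (1.83-fold higher) were placed on the cAMP list alone. Egr2 and Egr3, which the authors reported as raised in this comparison, were placed on no list. The counts and medians of these lists therefore depend on how genes were assigned, and the serum list does not stand for all serum-responsive genes. Over all measured genes 0.96% were at least 2-fold higher and 0.843% lower, so counts in lists this short say little. Whether the lower serum of the supernatant had a part in the values of Per1, Per2 or Bhlhe40 was not tested. Of 11 measured genes known as targets of the clock, of REV-ERB or of Nfil3, 1 was at least 2-fold higher, the chemokine gene Ccl2 (10674 with the supernatant and 3727 with medium, 2.86-fold). Their median was -0.07. Il12b, which Nfil3 is known to repress in macrophages, was under the floor on both arrays.

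**Figure D3:**
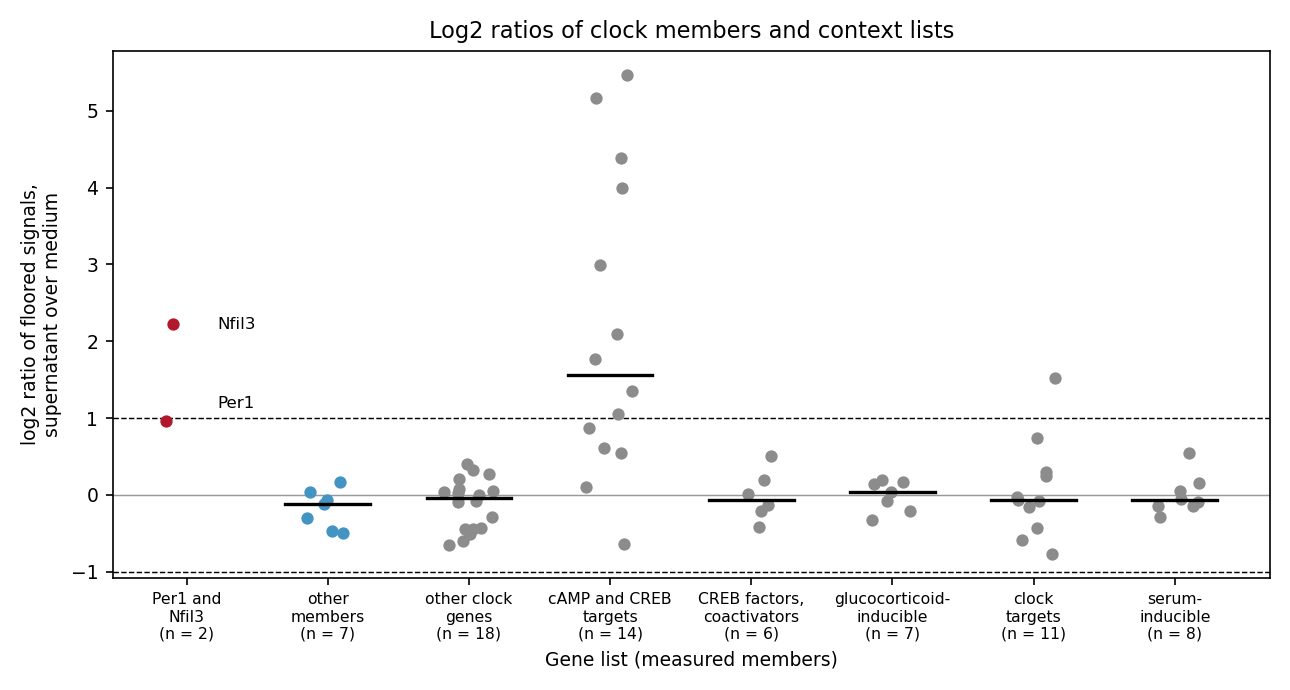
Log2 ratio of supernatant over medium, on floored signals, of each measured gene (points) in 8 gene lists. Bars are medians (none for Per1 and Nfil3), and dashed lines mark a 2-fold difference. Per1 (0.96) and Nfil3 (2.22) lie above the other 7 measured members, the cAMP and CREB targets spread from -0.64 to 5.47 (median 1.56), and no gene of the other members, the other clock genes, the CREB factors, the glucocorticoid list or the serum list lies outside the dashed lines.

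The arrays carried the RNA of macrophages by their markers. All 10 macrophage markers named on the array were measured, with signals from 471 to 32154, and 1 of them, Mertk, a receptor for apoptotic cells, was at least 2-fold higher (2.23-fold). Of 15 T cell markers, which RNA carried over from W3 cells could bring, 11 were under the floor on both arrays, Cd3d, Cd3e and Cd3g included, and the summed signal of the list was 758 with the supernatant and 905 with medium. Of the 4 measured, Zap70, a kinase of T cell receptor signalling, read 313 with the supernatant and 208 with medium, Cd28 and Cd5 had lower signals with the supernatant, and Cd8a passed the floor with medium alone. Of 16 natural killer, B cell, dendritic and stromal markers named on the array, 3 were measured, and no signal exceeded 57.9. Of 6 neutrophil markers 4 were measured. S100a8 read 462 with the supernatant and 391 with medium, and S100a9, Ngp and Elane passed the floor with the supernatant alone (73.0, 51.5 and 51.8), so their ratios are lower bounds. The summed signal of the neutrophil list was 660 with the supernatant and 439 with medium. Whether other cells had a part in the clock values was not tested, and in a bulk sample fewer cells of a type and less RNA per cell cannot be told apart.

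**Figure D4:**
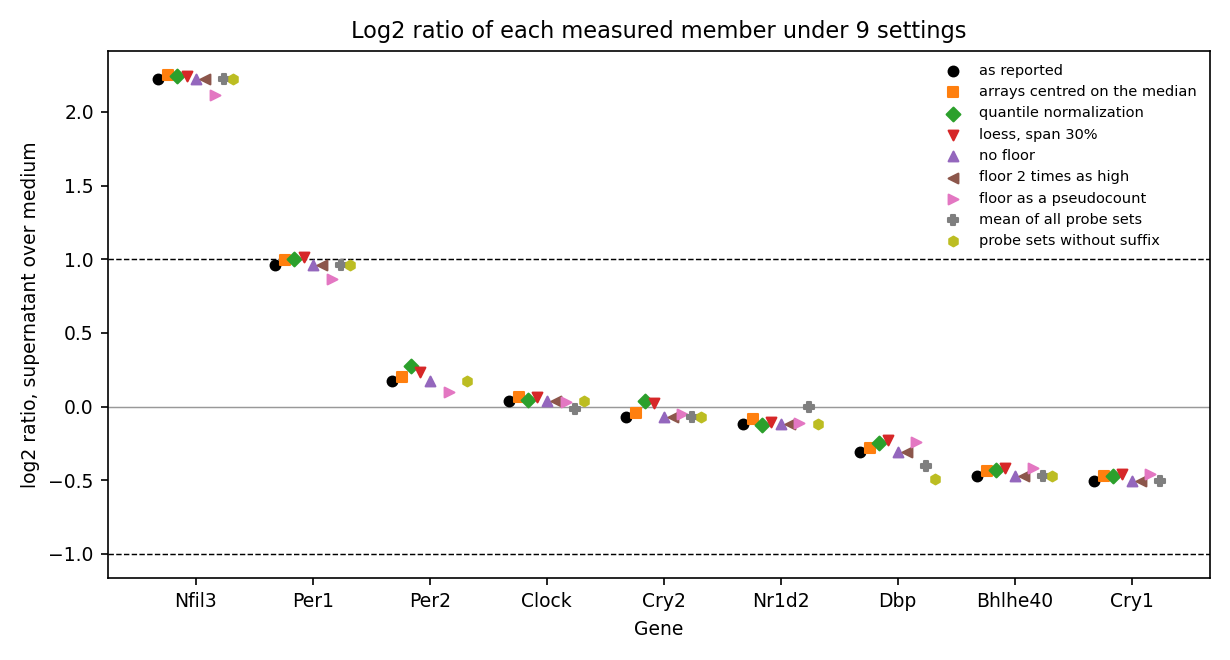
Log2 ratio, supernatant over medium, of the 9 measured genes under the reported setting (black circles) and 8 alternatives (other markers), with dashed lines at a 2-fold difference. Nfil3 stays above 2-fold in every setting shown (2.12 to 2.25), Per1 straddles the line (0.87 to 1.01), and the other 7 genes remain between -0.50 and 0.28.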

How the data were processed

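RNA of BMDMs was labelled with biotin and hybridized to an Affymetrix mouse array, 1 array per condition. The authors deposited a linear intensity, the signal computed by MAS5, for each of 45101 probe sets. Their mean after trimming 2% at each end was 500.004 on both arrays, so each carries 1 scaling factor. Scaling target and genome build are not given in the sources used here. The labels gave the conditions. Probe sets were named from the platform annotation (34958 with a single gene, 932 with several and used for no gene, 9211 not listed or without a gene name). All 17 probe sets of the clock genes kept their symbol in the RefSeq gene table of GRCm38.p6.

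Ratios are supernatant over medium on floored signals, with 2-fold as the threshold. No test was run, since each condition has 1 array. The members and gene lists were chosen with earlier results of these data known. Named are all 10 members, the other clock genes at least 2-fold different or else the 4 with the largest difference among those above the floor on both arrays, and up to 5 genes per context list that were at least 2-fold different. Other context genes, among them Tsc22d3, Fos, Il12b, Crtc2, Crtc3 and the cell type markers, were named after their values were seen. A likeness of pattern was not computed, since 2 arrays give 1 difference per gene. The alternatives were median-centring, quantile normalization, loess with a span of 30%, no floor, a floor 2 times as high, the floor as a pseudocount, averaging a gene's probe sets on the log2 scale, and leaving out probe sets whose name carries _s, _x or _a. Steps were tested on simulated data in which only bright genes were altered, by folds well past the threshold. That test did not cover the recovery of altered dim genes or of differences near 2-fold. Python 3.11.15, numpy 2.4.6, pandas 2.3.3, statsmodels 0.14.6 and matplotlib 3.10.9 were used.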

Additional observations from a re-analysis of the deposited data

How the results depend on the processing

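No paired analysis was possible because there was a single array for either condition, and for the same reason no array could be left out. The number of clock genes at least 2-fold higher, 1 as reported (Nfil3), was 2 after quantile normalization and 2 after loess, where Per1 joined it. None was at least 2-fold lower, except that with no floor 1 was, Nr1d1, whose signals are both under the floor. With no floor 1 other clock gene was at least 2-fold higher (Npas2) and 1 lower (Arntl2), against 0 and 0 as reported. Over all measured genes, 115 higher and 101 lower of 11977 became 1865 and 2116 of 18194 with no floor. The number lower was 27 of 10064 under a floor 2 times as high and 157 of 10981 when probe sets were averaged. The log2 ratios of the 9 measured genes moved by less than the SD between probe sets in all 69 values computed under the alternatives. Many of these values could not move. Nfil3 and Per1, each on 1 probe set well above the floor, keep their ratios with no floor, the higher floor, averaging and the removal of suffixes. Under the mean of all probe sets and under the higher floor Per2 was no longer measured, and Cry1 has no probe set without a suffix. Dim signals limit Per2 and Nr1d1 most.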
